A study of Mus musculus with 12 samples.

Results

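The loci described here are stretches of open liver chromatin at which enhancer regions of the drug-treated libraries were listed and none of the control libraries. The deposited enhancer table lists 406518 regions, and 406433 of them have 1 of 12 widths. Each width was given to the library with the fewest zero counts among its regions, which is an inference that each width marks the regions listed for that library. Overlapping regions were merged into 197766 loci. A locus was a member when it held the widths (width classes) of 3 or more atorvastatin or PCN libraries, of no control library, and fewer than 10 in all. The rule found 11764 members, 5.95% of the loci, made of 47882 regions. The members were thus chosen by which libraries' regions were listed at a locus, and the widths were given to libraries by their counts. Because the rule used the contrast of treated with control, levels in that contrast are given as a description, with no test.

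The data are ATAC-seq counts, in which a transposase cuts accessible DNA, from mouse liver. The mice were males of the wild-type strain C57BL/6N, at 19 to 20 weeks of age. Gavage over 4 days gave distilled water to controls, atorvastatin at 10 mg/kg to the second group and PCN (pregnenolone 16α-carbonitrile) at 100 mg/kg to the other, and the mice were then fasted for 12 h. Each of the 3 groups held 4 libraries, and all 12 shared the strain, the diet and the fast. The labels give 9 to 10 mice a group without saying whether a library is 1 mouse, so p-values measure only the spread between these libraries, which may be technical.

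Enhancers are regulatory stretches of DNA that act on genes from a distance, and their chromatin opens when transcription factors bind. In the liver, the factors that keep hepatocyte enhancers open include HNF4A, the FOXA proteins and C/EBP proteins. PCN activates PXR, the pregnane X receptor of the mouse, which binds DNA as a nuclear receptor paired with the retinoid X receptor RXRA and switches on drug-metabolising genes. Atorvastatin is a statin, a class of drugs that lower cholesterol synthesis.

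Reference sequence could be read only where a member lay inside a RefSeq promoter window, 300 bases that end shortly after a gene's start (build GRCm38.p6, which is mm10). Of all 32817 windows, 135 met a member, and in 10 of these the gene was protein-coding. The 6 members printed here lay wholly inside a window and carried the width classes of 5 or more treated libraries. Windows of protein-coding genes were left out of the printing, and not every chromosome was used for it. The 6 are thus examples at base level and do not stand for all members. All 6 windows belong to long noncoding RNA genes, and that none is protein-coding was set by this choice. They are written 5′ to 3′ on the strand of that RNA, with coordinates as in the deposited table read as counted from 1. Capitals mark any match to 6 short motifs: AGGTCA (nuclear receptors), TGTTTAC (forkhead), TGACTCA (AP-1), CCGGAAG (ETS), GTTAAT (homeodomain factors) and TTGCNNAA (C/EBP), searched on both strands.
Gm52192, chr15:3215260-3215448, plus strand: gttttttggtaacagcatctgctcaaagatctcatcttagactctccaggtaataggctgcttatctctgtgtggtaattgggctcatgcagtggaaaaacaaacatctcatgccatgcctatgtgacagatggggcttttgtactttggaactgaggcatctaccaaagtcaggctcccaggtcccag
Gm39360, chr9:64100507-64100704, minus strand: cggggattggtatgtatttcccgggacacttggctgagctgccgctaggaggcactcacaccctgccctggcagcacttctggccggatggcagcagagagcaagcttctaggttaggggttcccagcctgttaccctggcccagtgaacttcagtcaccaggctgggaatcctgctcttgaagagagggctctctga
Gm36617, chr15:59246006-59246249, plus strand: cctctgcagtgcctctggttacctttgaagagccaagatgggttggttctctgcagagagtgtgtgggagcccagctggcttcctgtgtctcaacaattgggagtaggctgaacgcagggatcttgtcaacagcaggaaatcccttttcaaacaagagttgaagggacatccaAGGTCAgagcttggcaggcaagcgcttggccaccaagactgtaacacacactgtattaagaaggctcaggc
Gm34924, chr3:65580922-65581052, minus strand: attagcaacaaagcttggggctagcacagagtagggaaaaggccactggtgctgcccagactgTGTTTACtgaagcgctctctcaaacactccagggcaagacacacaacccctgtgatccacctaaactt
Gm30147, chr3:132479387-132479553, plus strand: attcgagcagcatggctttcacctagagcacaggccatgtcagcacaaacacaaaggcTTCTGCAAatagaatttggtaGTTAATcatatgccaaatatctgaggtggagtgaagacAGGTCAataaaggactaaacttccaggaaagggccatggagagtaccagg
Gm35611, chr7:35086249-35086412, plus strand: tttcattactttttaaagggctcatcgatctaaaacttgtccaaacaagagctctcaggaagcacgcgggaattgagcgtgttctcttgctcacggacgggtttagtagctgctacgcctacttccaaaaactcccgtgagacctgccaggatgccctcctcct

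The stretch at Gm30147 held the nuclear receptor, homeodomain and C/EBP letters. Gm36617 held the nuclear receptor letters and Gm34924 the forkhead letters, and the other 3 held none of those searched. The levels at these 6 loci, in CPM, did not separate all treated from all control libraries at any of the 6. CPM are counts scaled by edgeR's TMM factors and to the library's total over the regions kept by a filter on low counts, not over all regions. At Gm52192, which held the classes of 6 treated libraries, control libraries 1 to 4 had 3.61, 2.61, 0 and 0 CPM. The atorvastatin libraries there had 1.98, 3.51, 15.2 and 3.06 CPM, and the PCN libraries 3.81, 4.56, 3.75 and 4.30 CPM. The PCN libraries all lay above the control libraries, and atorvastatin 1, 2 and 4 lay within the control range. At Gm35611 the PCN libraries, at 7.21, 4.84, 3.75 and 3.94 CPM, also lay above the control libraries, at 3.61, 1.95, 2.16 and 0 CPM, and the atorvastatin mean was 3.09 ± 2.96 CPM. At Gm34924 the means were 1.06 ± 0.794 CPM in control, 2.48 ± 1.88 CPM with atorvastatin and 2.86 ± 1.35 CPM with PCN (SD, n = 4), with overlapping ranges. At Gm39360, also with 6 classes, the control mean of 4.24 ± 3.03 CPM (SD, n = 4) was above the atorvastatin mean of 4.08 ± 1.98 CPM and the PCN mean of 3.13 ± 2.31 CPM. At Gm30147 the control mean was 2.93 ± 1.60 CPM, against 1.18 ± 1.41 CPM with atorvastatin and 2.12 ± 1.57 CPM with PCN. At Gm36617 the means were 3.93 ± 3.96, 2.12 ± 1.63 and 3.53 ± 1.01 CPM for control, atorvastatin and PCN. The control means at Gm39360 and Gm36617 rest on control 3, at 8.64 and 9.72 CPM, and without it they fall below the atorvastatin means. Thus a locus without a control width class still held control counts.

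Across the 135 windows at members, AGGTCA was found in 28.9%, against 19.1% of the 11587 windows of noncoding genes and 16.3% of all 32817 windows. In the 173 windows at loci with 10 or more width classes it was found in 27.2%, close to the members' share. TGTTTAC was found in 8.15%, against 4.83% of noncoding windows and 2.89% of those at the loci with 10 or more classes. GTTAAT was found in 12.6%, against 8.66% and 10.4%, and the C/EBP letters in 18.5%, against 12.0% and 20.8%. TGACTCA, with 5.19% against 6.21%, and CCGGAAG, with 4.44% against 3.89%, differed less. These shares are descriptions of letters in a small and incomplete set of windows, with no test.

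The number of listed regions differed widely between libraries, also within a group. The widths held 6587 to 22662 regions in the control libraries, 22855 to 100767 in the atorvastatin libraries and 21493 to 40597 in the PCN libraries. Total enhancer counts ranged from 1256648.5 to 5517722 in control libraries and from 2671493.5 to 13078975.5 in treated libraries. Control 3, with the fewest regions, and atorvastatin 3, with the most, also had the most zeros at the members: control 3 had 0 counts at 68.2% and atorvastatin 3 at 34.9%, against 0.017% in control 1 and 0.00850% in atorvastatin 2. Every treated library contributed, in unequal shares: atorvastatin 2 had its class at 93.3% of the members, PCN 2 at 66.5%, PCN 3 at 65.6%, atorvastatin 4 at 58.7%, PCN 1 at 46.5%, atorvastatin 1 at 30.9%, PCN 4 at 30.1% and atorvastatin 3 at 14.8%. The rule has no mirror image in these data: no locus held 3 or more control classes and no treated class, and 124 held 2 control classes and no treated class. Depth and treatment cannot be told apart in the number of listed regions.

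**Figure D1:**
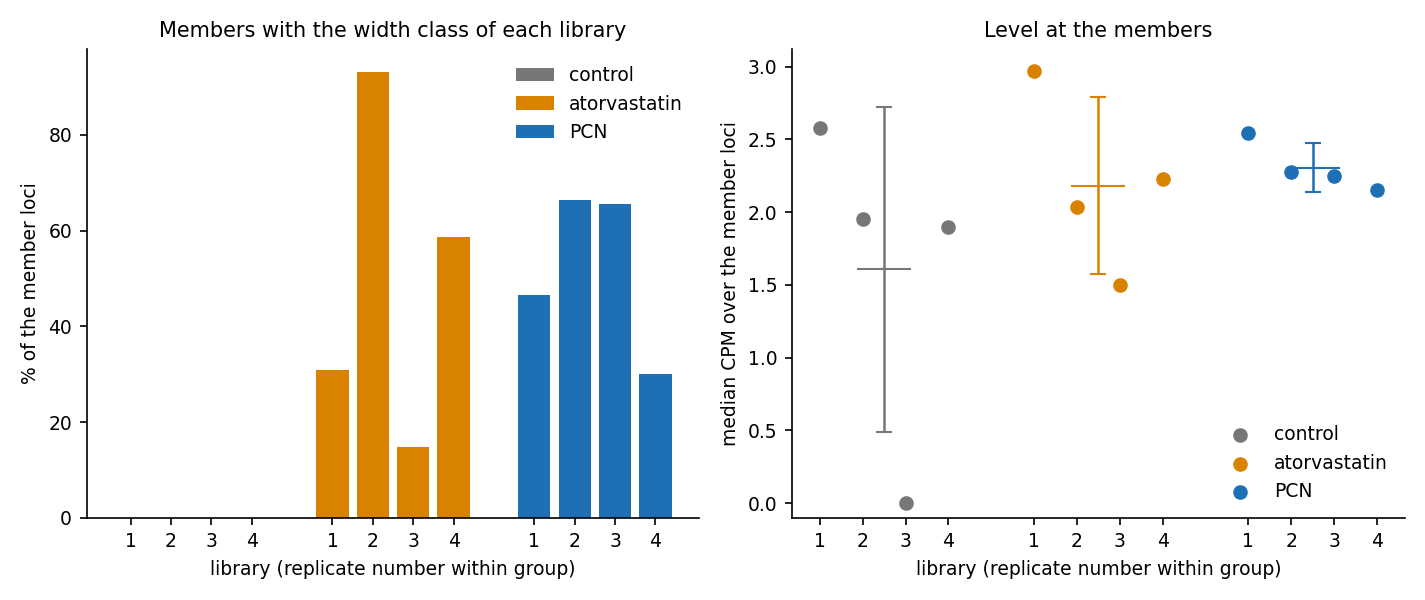
Left: percent of the 11764 members that hold the width class of each library (bars, 12 libraries in 3 groups; control is 0 by the rule). Right: median CPM over the members in each library (points) with the mean ± SD of the 4 libraries of a group. Atorvastatin 2 has its class at 93.3% of the members, and control 1, at 2.58 CPM, lies above the 4 PCN libraries and 3 of the atorvastatin libraries, while control 3 is at 0.

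The name "peaked in treated but not control" describes the listed regions but not the levels, and the data go against it there. The median CPM over the members was 2.58, 1.95, 0 and 1.90 in control libraries 1 to 4. It was 2.97, 2.03, 1.5 and 2.23 in the atorvastatin libraries and 2.54, 2.28, 2.25 and 2.15 in the PCN libraries. The groups overlapped, with control 1 above every PCN library. The group means of these medians were 1.61 ± 1.12 CPM for control, 2.18 ± 0.609 CPM for atorvastatin and 2.31 ± 0.168 CPM for PCN (SD, n = 4 each). Without control 3 the control mean was 2.14 ± 0.376 CPM (n = 3), and without atorvastatin 3 the treated mean was 2.35 ± 0.314 CPM (n = 7). At the 5247 loci with 10 or more width classes, the means were 9.02 ± 2.43, 10.3 ± 0.413 and 10.4 ± 0.254 CPM. Per 100 bases, the members held 1.28 CPM in control, 1.80 with atorvastatin and 1.91 with PCN, and those open loci 5.51, 6.27 and 6.36 CPM. Over all loci the values were 0.399, 1.17 and 0.354 CPM, so the members lay between loci in general and the loci with 10 or more classes in every group.

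Among the treated libraries, the level at a member was higher where the width class was present. This is built in, because the widths were given to libraries by their counts, so the levels below are a description. Libraries whose class was present had a median of 3.12 CPM, and treated libraries whose class was absent had 1.68 CPM. Control libraries, whose class is absent by the rule, had 1.88 CPM, and 2.14 CPM without control 3. The median level in control therefore lay above that of treated libraries with no class. Control 1 was above the median of the 8 treated libraries at 60.6% of the members, control 2 at 37.4%, control 4 at 30.1% and control 3 at 19.4%. At 81.8% of the members at least 1 control library was above the treated median, against 94.2% of all loci and 86.4% of the loci with 10 or more classes. In control 1, 46.5% of the members held at least as many counts per 100 bases as the 5th percentile of its own listed regions. Its class was absent there by the rule. The same held for 31.8% of members in control 2, 18.3% in control 3 and 12.8% in control 4. Every treated library also had a higher such share than its share of members with the class. In PCN 1 they were 70.5% and 46.5%, and in atorvastatin 2 94.9% and 93.3%. Why regions were not listed there was not tested.

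The level was higher at loci with more treated classes, which the rule itself counts. The 5119 members with exactly 3 treated classes had a median of 1.90 CPM in treated and 1.53 CPM in control libraries, a ratio of 1.24, or 1.06 without control 3. For the 91 members with the classes of all 8 treated libraries, the medians were 8.15 and 4.25 CPM, a ratio of 1.92, or 1.73 without control 3. Between these lay 3094 members with 4 classes, 1924 with 5, 1040 with 6 and 496 with 7. Just outside the rule, the 10269 loci with 2 treated and no control class had mean library medians of 1.22 ± 0.364 CPM in treated (n = 8) and 0.841 ± 1.02 CPM in control. The 10388 loci with 3 or more treated and 1 control class had 3.23 ± 0.445 and 2.72 ± 1.90 CPM. Just inside, at 3 treated classes, the corresponding values were 1.68 ± 0.348 and 1.31 ± 1.05 CPM.

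**Figure D2:**
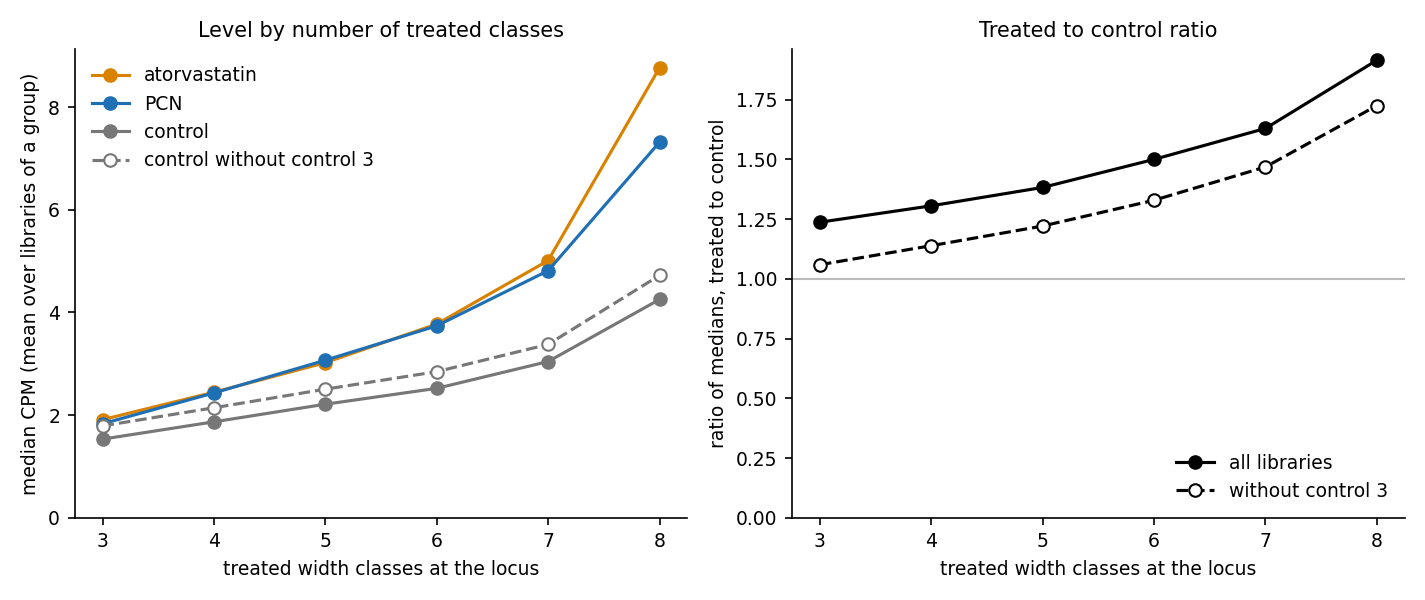
Left: median over members of the group mean CPM, by the number of treated width classes at the locus, for atorvastatin, PCN, control and control without control 3. Right: the ratio of the treated to the control median, for all libraries and without control 3, with a line at 1. The ratio goes from 1.24 at 3 classes to 1.92 at 8 classes, and from 1.06 to 1.73 without control 3.

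Groups that did not overlap at all were few. The lowest of the 8 treated libraries lay above the highest of the 4 control libraries at 113 members, which is 0.961% of them, against 0.142% of all loci. Among the loci with 10 or more classes it was 44 of 5247, or 0.839%. The rule chose members by this contrast, so nothing is read from the difference. Without control 3 and atorvastatin 3, the count was 302 members (2.57%, against 0.368% of all loci), an alternative chosen after the data were seen. With PCN alone, 541 members (4.6%, against 0.798% of all loci) lay above all control libraries, and with atorvastatin alone 347 did (2.95%, against 0.624%). The opposite order, all control libraries above all treated ones, was found at 6 members and 247 loci in all.

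The next 3 loci, chosen after their values were seen, were among the 10 of the 113 with the highest ratio of the treated to the control mean when 0.5 CPM was added to each, and they had little signal in control. At a locus inside Nsf (chr11:103867815-103868037), which encodes an ATPase of membrane fusion, control libraries had 1.55, 1.95, 0 and 0 CPM. The atorvastatin libraries there had 4.95, 3.33, 9.49 and 7.24 CPM and the PCN libraries 3.81, 6.83, 3.00 and 8.60 CPM. The ratio of the means was 6.75, or 5.06 without control 3, and the 4 control libraries together held 12.5 counts. A locus 14735 bases from Adh1 (chr3:138262626-138262850), the alcohol dehydrogenase of hepatocytes, had 3.61, 1.95, 0 and 0 CPM in control. It had 7.43, 5.73, 15.0 and 7.24 CPM with atorvastatin and 5.51, 5.69, 3.94 and 9.68 CPM with PCN, a ratio of 5.41, or 4.06 without control 3. Inside Rbm20 (chr19:53786935-53787093), which encodes a splicing factor, the control levels were 0.773, 1.30, 0 and 0.950 CPM. The lowest treated library there, atorvastatin 4, was at 1.81 CPM and the highest, atorvastatin 3, at 13.0 CPM, and the ratio was 6.85, or 5.14 without control 3. In each of these 3 loci control 3 was at 0 and atorvastatin 3 was the highest of all libraries. The region counted had the width given to atorvastatin 3 at Nsf and Adh1, and that given to PCN 1 at Rbm20.

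The 8 members with the most treated classes, ranked by mean CPM, had the classes of all 8 treated libraries, and none of them separated treated from control libraries completely. At each of the 8, the region counted in all libraries had the width of 182 given to atorvastatin 3. The high levels of that library there are not free of this choice. At the locus 168 bases from Ctdsp1 (chr1:74397453-74397656), the gene of a nuclear phosphatase, control libraries had 30.4, 25.4, 0.540 and 20.9 CPM. With atorvastatin the levels were 30.7, 33.6, 32.0 and 29.8 CPM, and with PCN 27.3, 25.6, 44.6 and 31.5 CPM. The other control libraries were thus close to or within the treated range, and control 3 was nearly empty: the ratio was 1.65, and 1.25 without control 3. At the locus inside Mtss1 (chr15:58986571-58986775), an actin-binding scaffold, the control levels were 15.5, 16.3, 19.4 and 9.5 CPM, and all but control 4 lay among the treated ones. These were 13.9, 24.7, 17.5 and 16.4 CPM with atorvastatin and 17.0, 21.6, 11.4 and 20.8 CPM with PCN.

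Another of these lay 51324 bases from Rxra (chr2:27624790-27625121), which encodes the partner that PXR needs to bind DNA. Control libraries had 12.4, 15.0, 5.40 and 11.4 CPM, atorvastatin libraries 11.9, 14.6, 26.2 and 10.3 CPM and PCN libraries 17.2, 23.3, 16.7 and 25.1 CPM. All 4 PCN libraries were above all 4 control libraries there, and 3 of the atorvastatin libraries were not. Inside Pitpnm2 (chr5:124173619-124173801), a phosphatidylinositol transfer protein, the order was the other one. Control was at 12.4, 9.45, 10.3 and 10.5 CPM, atorvastatin at 14.9, 18.0, 32.5 and 19.2 CPM and PCN at 11.0, 10.2, 14.8 and 20.1 CPM. All atorvastatin libraries were above all control libraries, and PCN 1 and PCN 2 were not. Tpst2 (chr5:112289963-112290187), the gene of a tyrosine sulfotransferase, held the same order, with means of 12.8 ± 1.17 CPM in control, 18.4 ± 3.09 CPM with atorvastatin and 12.9 ± 0.902 CPM with PCN (SD, n = 4).

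The remaining 3 had lower control levels. Inside Ece1 (chr4:137943101-137943373), the endothelin-converting enzyme, control libraries had 11.3, 10.4, 0 and 7.60 CPM, against 10.9, 21.4, 35.0 and 13.9 CPM with atorvastatin and 15.7, 15.4, 20.4 and 21.5 CPM with PCN. Only atorvastatin 1 overlapped the control range, and the ratio was 2.63, or 1.97 without control 3. Inside Clu (chr14:65977306-65977587), which encodes the secreted chaperone clusterin, control was at 8.50, 13.0, 3.24 and 8.55 CPM, atorvastatin at 17.8, 19.0, 21.2 and 13.8 CPM and PCN at 17.0, 15.4, 11.6 and 13.3 CPM. Only PCN 3 overlapped the control range there. Inside Tulp2 (chr7:45491330-45491512), of the tubby-like family, the means were 10.3 ± 3.38 CPM in control, 18.9 ± 5.76 CPM with atorvastatin and 16.5 ± 2.22 CPM with PCN.

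**Figure D3:**
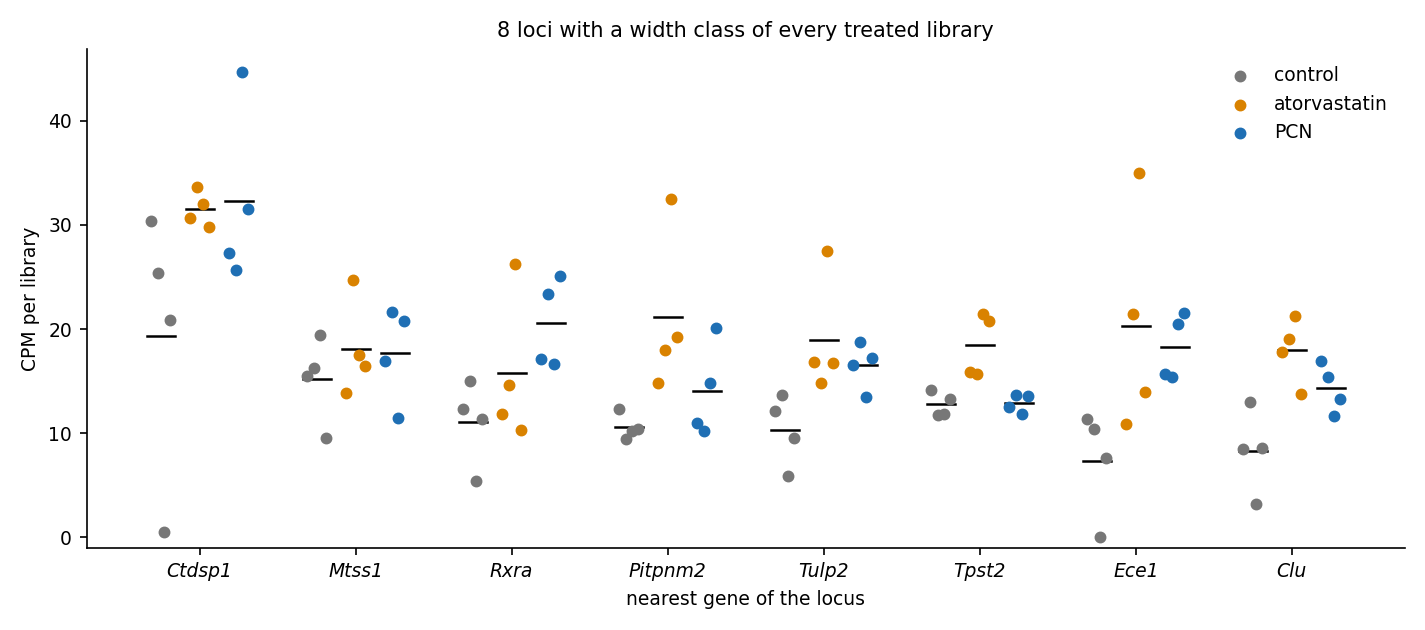
CPM in each of the 12 libraries (points) at the 8 members of highest mean CPM among the 91 with all 8 treated width classes, named by the nearest gene, with the mean of each group of 4 libraries (black lines). Control and treated points overlap at each of the 8 loci, least at Tulp2, Ece1 and Clu, and atorvastatin 3 is the highest point at Rxra, Pitpnm2, Tulp2, Tpst2, Ece1 and Clu. At all 8 loci the region counted has the width given to atorvastatin 3, so its high points are not free of this choice.

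Fold changes over the members were taken from an edgeR fit of all enhancer regions, with each locus represented by its region of highest mean CPM. The filter on low counts left 6692 members (56.9%), against 35749 of all loci (18.1%). A member could pass through its treated libraries alone, so those that passed are not all members and their medians support nothing. Their median log2 fold change was 0.39 for PCN against control and 0.40 for atorvastatin against control, beside 0.17 and 0.12 over all 182115 regions tested. With no filter, over all 11764 members, the medians were 0.61 and 0.44, beside 0.21 and 0.35 over all regions. No call or p is given for members in these 2 comparisons, because the rule chose them by treated against control. Over all regions tested, percent called by edgeR was 0 in both. These 2 comparisons share the control libraries. Without control 1 the medians were 0.68 and 0.67, over 6618 members that passed the filter. Without control 3 they were 0.24 and 0.21, over 9260 members. The set of members thus changed with the library left out, and the 2 changes cannot be told apart here. Scaling to the totals of the regions kept by the filter, without TMM, shifted all regions to 0.05 and 0.03 and the members to 0.27 and 0.31. The members then lay 0.22 and 0.29 above all regions, against 0.22 and 0.27 with TMM.

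**Figure D4:**
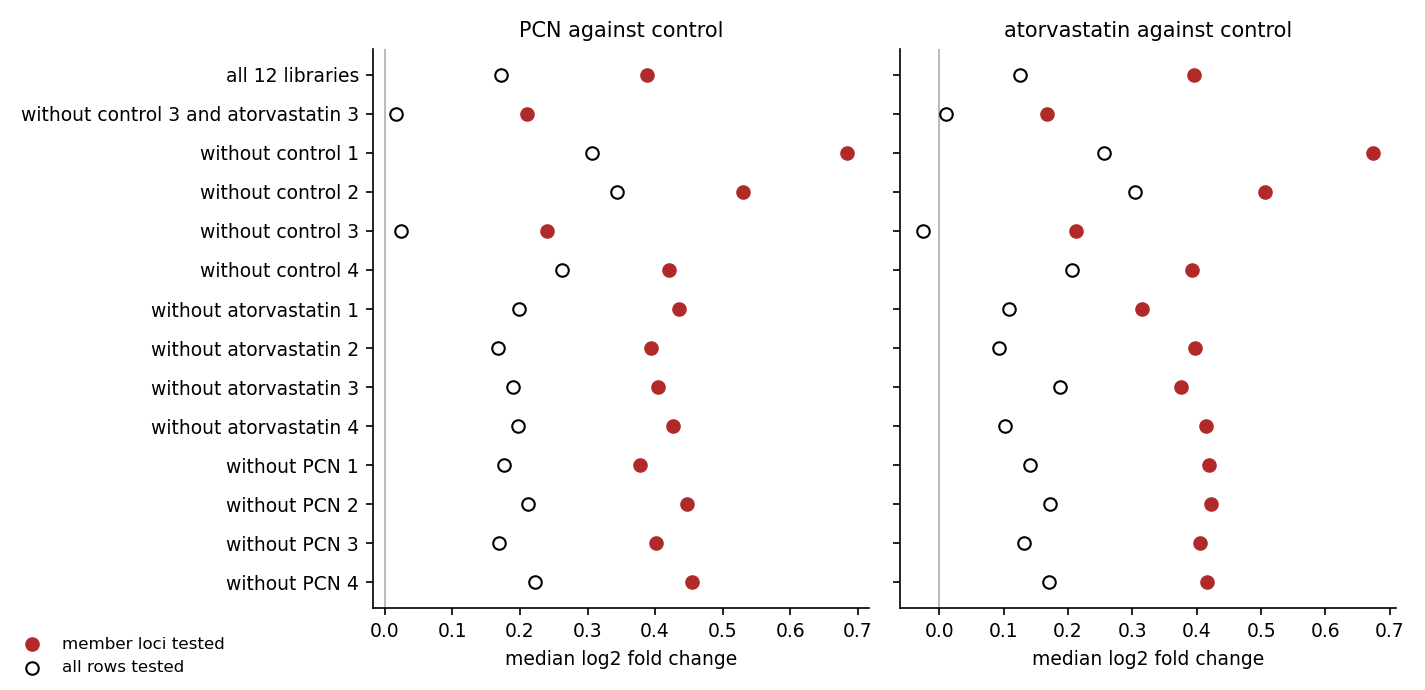
Median log2 fold change against control at the members tested (filled) and over all regions tested (open), with all 12 libraries and with libraries left out, for PCN (left) and atorvastatin (right). The members' median goes from 0.24 without control 3 to 0.68 without control 1 for PCN when 1 library is left out, and from 0.21 to 0.67 for atorvastatin. The members and regions that pass the filter differ between these fits.

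The comparison of PCN with atorvastatin was not used by the rule, which counts the classes of both drugs together. Of the members, 11419 (97.1%) held classes of both drugs, 247 of atorvastatin alone and 98 of PCN alone. The median log2 fold change of PCN against atorvastatin at the 6692 members tested was 0.00, beside 0.06 over all regions. No member passed an adjusted p of 0.05 in the quasi-likelihood test of edgeR, adjusted by Benjamini-Hochberg over all 182115 regions, where percent called was 0. At an unadjusted p under 0.05 there were 62 members (0.926%, against 0.465% of all regions), and DESeq2 called 0 with 151 at that unadjusted level. The 112 tested members with atorvastatin classes alone had a median of -1.04, and the 53 with PCN classes alone 0.73. This is a description, because their classes come from those libraries.

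Of the 3 members of smallest p in each direction, those inside Hmbox1 (higher with PCN) and Prkce (lower with PCN) held classes of both drugs. Hmbox1 held 1 atorvastatin and 3 PCN classes, and Prkce 4 atorvastatin classes and 1 PCN class. Their directions thus go with their classes, and nothing is read from them. At Prkce (chr17:86398334-86398531), the gene of protein kinase C epsilon, atorvastatin libraries had 5.94, 3.14, 24.5 and 5.98 CPM and PCN libraries 2.75, 2.28, 2.25 and 1.43 CPM. Control libraries had 4.12, 1.30, 1.62 and 0 CPM, so PCN lay within the control range. The region counted had the width given to atorvastatin 3. All atorvastatin libraries were above all PCN libraries, with a log2 fold change of -2.14 (SE 0.71) and an adjusted p of 1.00 by edgeR. At Hmbox1 (chr14:64855343-64855498), the gene of a homeobox protein, PCN libraries had 3.81, 3.70, 2.25 and 7.53 CPM and atorvastatin libraries 1.98, 1.76, 0 and 0.835 CPM. Control was at 3.61, 2.61, 1.08 and 3.80 CPM, near the PCN levels. The log2 fold change was 1.90 (SE 0.81), again with an adjusted p of 1.00 by edgeR.

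The other 4 of these members carried the classes of 1 drug alone, and are given as values. A locus 45813 bases from Car12 (chr9:66666293-66666483), a carbonic anhydrase gene, held the classes of all 4 atorvastatin libraries. Its levels were 7.92, 6.01, 13.0 and 5.01 CPM with atorvastatin, 2.12, 1.71, 1.13 and 1.43 CPM with PCN and 3.09, 0.977, 6.48 and 1.90 CPM in control. Control 3 was above atorvastatin 2 and atorvastatin 4 there. A locus 1349 bases from Calm3 (chr7:16913848-16914030), a calmodulin gene, had 6.85 ± 5.14 CPM with atorvastatin, 2.03 ± 0.485 CPM with PCN and 7.29 ± 3.46 CPM in control (SD, n = 4). At Pdgfrl (chr8:40961843-40962048), with the classes of 3 PCN libraries, the means were 2.87 ± 0.843 CPM with PCN, 0.912 ± 0.478 CPM with atorvastatin and 4.71 ± 3.29 CPM in control. At Pdgfrl the control mean was thus above both treated means, although no control class was present. At Calm3 it was too, but only with control 3, at 10.8 CPM. At the locus 169676 bases from Lpp (chr16:24223524-24223674) the means were 6.35 ± 1.85, 2.23 ± 0.569 and 3.38 ± 2.32 CPM for PCN, atorvastatin and control.

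The members were also described by their position. Of the members, 56.9% lay inside the body of a protein-coding gene, against 50.8% of all loci and 51.9% of the loci with 10 or more classes. Within 50 kb of a gene body lay 88.2%, against 77.3% and 85.6%. Their median span was 166 bases, against 182 for all loci and 267 for the loci with 10 or more classes. Per chromosome, members made up 5.08% of the loci on chromosome 3 to 7.73% on chromosome 19, with 7.47% on X. These are descriptions over loci, which are not replicates of a condition.

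Genes with many members were long genes, several of them transcriptional regulators of hepatocytes. Among them, Prkce had 17 members among 122 loci, Rere, a corepressor gene, 15 of 91, and Rora, the gene of a nuclear receptor of the clock, 15 of 112. Elovl6, which encodes the enzyme that elongates palmitate, had 11 of 39 loci (28.2%), and Nfib, the gene of a nuclear factor I protein, 12 of 70. Over all genes the share was 6.79% of the loci within 50 kb. At Elovl6 the median level of the 11 members was 2.01 CPM in control, 1.80 CPM with atorvastatin and 3.08 CPM with PCN. Without control 3, the control median there was 2.68 CPM. At Elovl6 the only member whose groups did not overlap (chr3:129591794-129592047) had 2.16 ± 1.66 CPM in control, 5.30 ± 1.83 CPM with atorvastatin and 6.72 ± 1.87 CPM with PCN.

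The lists of liver genes were described by how many of their genes had a member inside or within 50 kb, each member being counted for its nearest protein-coding gene, and nothing is called particular to a list from this. Over all protein-coding genes it was 5664 of 21900, or 25.9%. Among hepatocyte transcription factors it was 27 of 33 (81.8%), with 111 members among 913 loci (12.2%). Fatty acid and triglyceride synthesis followed with 20 of 30 genes, NRF2 targets with 15 of 23, and sex-biased liver genes with 19 of 33. PXR and CAR drug metabolism had 32 of 56 genes (57.1%) and 54 members among 577 loci (9.36%). The circadian clock had 12 of 22 genes, bile acid and sterol disposal 14 of 27, and gluconeogenesis and fasting 10 of 22. Cholesterol synthesis and uptake had 13 of 33 genes, fatty acid oxidation and ketogenesis 13 of 35, iron and acute phase 10 of 33, and stress and immediate-early genes 12 of 32. Counted per locus, the members' shares in the pathway lists ranged from 5.63% for gluconeogenesis and fasting to 12.2% for hepatocyte transcription factors, beside 6.79% over all genes. Cholesterol synthesis and uptake, at 6.99%, and fatty acid oxidation and ketogenesis, at 7.71%, lay near that background. Several genes stand in more than 1 list.

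**Figure D5:**
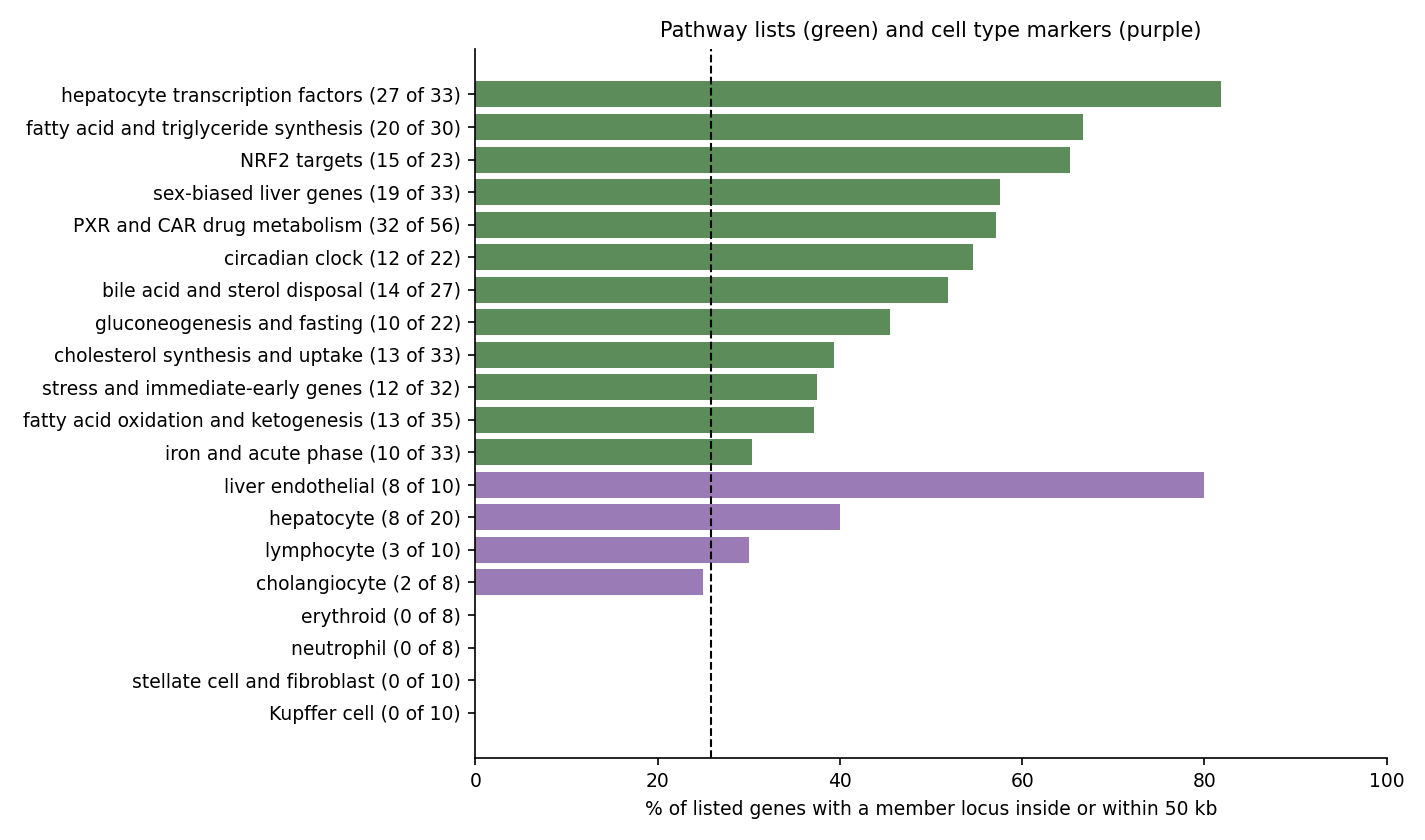
Percent of the genes of each fixed list that had a member inside or within 50 kb (bars, with the counts beside each name), for 12 pathway lists (green) and 8 cell type marker lists (purple); the dashed line is the 25.9% of all protein-coding genes. Hepatocyte transcription factors (81.8%) and liver endothelial markers (80%) have the highest shares, and 4 marker lists have none.

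Hepatocyte transcription factor genes held some of the members with separated groups, 7 of 111, beside 113 of all 11764 members (0.961%), with nothing read from it. The treated mean was above the control mean at 90 of the 111, and at 80 without control 3, beside 8898 and 7889 of all 11764 members. A locus 8489 bases from Cebpa (chr7:35130417-35130602), the gene of C/EBP alpha, had 6.19, 3.91, 0 and 3.80 CPM in control. It had 7.92, 10.2, 22.7 and 15.3 CPM with atorvastatin and 6.36, 7.40, 15.0 and 15.8 CPM with PCN, so that PCN 1 exceeded control 1 only narrowly. A second locus of Cebpa (chr7:35146517-35146629) had 10.4 ± 2.00 CPM in control, 7.59 ± 1.92 CPM with atorvastatin and 11.0 ± 1.98 CPM with PCN (SD, n = 4). Of 6 members at Prox1, the gene of a homeobox factor of liver development, one (chr1:190106258-190106386) had control levels of 4.38, 3.58, 4.32 and 3.80 CPM, below 6.44, 6.19, 5.74 and 6.40 CPM with atorvastatin and 8.48, 6.83, 5.63 and 6.45 CPM with PCN. There control 3 was not low, and the groups did not overlap. A locus 10656 bases from Onecut1 (chr9:74900304-74900410), the gene of HNF6, had 0.485 ± 0.617 CPM in control, 2.64 ± 0.854 CPM with atorvastatin and 3.24 ± 0.754 CPM with PCN. These 4 loci were named after their values were seen. By mean CPM, the list's highest were at Nfix (chr8:84707651-84707899), with 11.4 ± 7.89, 15.6 ± 3.84 and 15.2 ± 4.22 CPM for control, atorvastatin and PCN, and near Cebpb (chr2:167694203-167694464), with 8.92 ± 2.64, 18.0 ± 4.95 and 13.5 ± 4.21 CPM.

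The drug metabolism list holds genes linked to PXR and the related receptor CAR, and the genes of both receptors and of RXRA. Near these genes, 1 of 54 members had groups that did not overlap, beside 0.961% of all members. The treated mean was above control at 46 of the 54 (85.2%), and at 40 (74.1%) without control 3. Over all members these shares were 75.6% and 67.1%. The rule chose members by this contrast, so nothing is read from such counts in any list. At Nr1i2 (chr16:38285982-38286088), which encodes PXR, control libraries had 7.22, 5.21, 0 and 5.70 CPM, atorvastatin libraries 6.44, 7.40, 3.00 and 10.6 CPM and PCN libraries 4.66, 10.2, 12.9 and 6.45 CPM. The groups overlapped there. Near Cyp3a11, the main PXR-induced cytochrome, the member 24782 bases away (chr5:145904636-145904807) had 3.61, 1.95, 0 and 1.90 CPM in control, 4.46, 3.33, 4.00 and 1.67 CPM with atorvastatin and 3.81, 5.69, 7.13 and 6.09 CPM with PCN. All PCN libraries were above all control libraries, PCN 1 by a small margin over control 1. A member 20681 bases from Cyp3a11 (chr5:145900535-145900802) had 3.09 ± 2.03 CPM in control and 2.78 ± 0.640 CPM with PCN (SD, n = 4). The closest member, 2853 bases away (chr5:145851566-145851754), had 0.421 ± 0.510 CPM in control and 1.52 ± 1.58 CPM with PCN. The ranges overlapped there. At Cyp2b10, the CAR-induced cytochrome, a member inside the gene (chr7:25919580-25919748) had 2.16 ± 2.03, 1.71 ± 1.36 and 2.22 ± 0.601 CPM in control, atorvastatin and PCN. Its other members had 1.26 ± 1.53, 2.39 ± 2.25 and 2.45 ± 1.57 CPM (chr7:25887854-25887994) and 1.61 ± 1.12, 4.35 ± 3.31 and 2.5 ± 1.3 CPM (chr7:25895271-25895422), with overlapping ranges. At Por (chr5:135713540-135713841), the reductase that supplies cytochromes with electrons, the means were 3.31 ± 2.55, 5.75 ± 1.80 and 4.92 ± 0.339 CPM. These 4 genes were named for their roles. The list's highest by mean CPM were both near Rxra, with 8.05 ± 2.25, 9.46 ± 2.98 and 12.1 ± 1.45 CPM at chr2:27671655-27671910 and 4.29 ± 3.06, 8.35 ± 5.40 and 9.02 ± 3.34 CPM at chr2:27752668-27752804.

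Near genes of cholesterol synthesis and uptake, the pathway that statins act on, no member of 20 had separated groups, beside 0.961% of all members, a share at which so few loci tell nothing. The treated mean was above control at 14 of the 20 with all libraries and without control 3, and at 12 with each library's full total as scaling. Over all members the shares were 75.6%, and 67.1% without control 3. With full totals the count over all members was 8427 of 11764. Inside Lrp1 (chr10:127576447-127576553), an uptake receptor, the means were 5.67 ± 4.32 CPM in control, 9.93 ± 1.37 CPM with atorvastatin and 10.6 ± 3.81 CPM with PCN (SD, n = 4). Control 3 was at 0 there, and the other control libraries, at 4.75 to 9.79 CPM, overlapped the treated ones, at 7.53 to 15.9 CPM.

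In fat metabolism, members near the synthesis genes had a treated mean above control at 36 of 47 loci, and at 28 without control 3. Those near the oxidation genes had it at 21 of 27 both with and without control 3, and at 20 with each library's full total as scaling. The shares were 76.6% and 59.6% for synthesis, and 77.8% for oxidation. Over all members they were 75.6%, and 67.1% without control 3. At Dgat2 (chr7:99170618-99170819), which makes triglycerides, the means were 10.8 ± 7.46, 16.1 ± 0.616 and 17.0 ± 2.37 CPM for control, atorvastatin and PCN (SD, n = 4), a ratio of 1.54, or 1.17 without control 3. At Agpat2 (chr2:26600080-26600241), an acyltransferase of the same route, with the classes of 3 PCN libraries, they were 15.8 ± 3.95, 12.9 ± 6.73 and 20.7 ± 6.19 CPM. At Cpt1a (chr19:3326424-3326687), which admits fatty acids to mitochondria, they were 7.97 ± 3.77, 10.5 ± 4.03 and 12.0 ± 2.20 CPM. At Acsl1 (chr8:46485053-46485202), an acyl-CoA synthetase, they were 7.06 ± 1.34, 9.08 ± 3.36 and 10.5 ± 2.3 CPM. In each of these 4 the range of the treated libraries overlapped that of control.

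Of the remaining lists, gluconeogenesis and fasting had a treated mean above control at 12 of 20 members, at 9 without control 3 and at 10 with each library's full total as scaling. Beside this and the counts below, the share over all members was 75.6%, and 67.1% without control 3. At Crtc2 (chr3:90258661-90258776), a coactivator of fasting genes, the means were 6.72 ± 0.790 CPM in control, 6.02 ± 4.07 CPM with atorvastatin and 6.81 ± 1.98 CPM with PCN (SD, n = 4). Bile acid and sterol disposal had 28 of 34, and 26 without control 3. Inside Scarb1 (chr5:125305519-125305910), the HDL receptor, with the classes of all 8 treated libraries, the means were 5.81 ± 1.64, 10.3 ± 1.81 and 10.9 ± 3.32 CPM for control, atorvastatin and PCN. Inside Hnf4a (chr2:163535094-163535276), with atorvastatin classes alone, they were 5.33 ± 5.14, 13.0 ± 3.03 and 10.9 ± 1.49 CPM. The circadian clock had 31 of 36 (25 without control 3), stress and immediate-early genes 15 of 18 (14), NRF2 targets 16 of 20 (17), sex-biased genes 23 of 28 (20), and iron and acute phase 14 of 19 (13). Near Id1 (chr2:152739280-152739584), a target of BMP signalling, the means were 4.69 ± 3.58, 12.8 ± 3.05 and 11.9 ± 5.36 CPM.

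The tissue label held by its markers: promoters of 20 hepatocyte markers had medians of 34.4 CPM in control, 41.1 CPM with atorvastatin and 42.7 CPM with PCN. Those of the 7 other cell types had medians between 3.80 and 12.6 CPM, and no marker was at 0 in all libraries. Summed over the 20 hepatocyte markers, promoter levels ranged from 471 to 1063 CPM in control, 674 to 1184 CPM with atorvastatin and 828 to 1126 CPM with PCN. The part of this spread in the members' levels was not tested. In bulk tissue, fewer cells of a type and less open chromatin per cell cannot be told apart. Members lay near 8 of 20 hepatocyte markers and 8 of 10 liver endothelial markers, among them Stab2 and Kdr, near 3 of 10 lymphocyte and 2 of 8 cholangiocyte markers, and near none of the Kupffer cell, stellate cell, neutrophil or erythroid markers. At the 19 members near endothelial markers the median was 2.42 CPM in treated and 2.25 CPM in control libraries, or 2.44 CPM without control 3. Summed endothelial promoter levels ranged from 87.3 to 130 CPM in control, 83.1 to 170 CPM with atorvastatin and 73.0 to 103 CPM with PCN.

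Promoters were not used by the rule, so those near members could be tested for treated against control. Within 50 kb of a member lay 15495 tested promoters of 8219 genes. No promoter passed an adjusted p of 0.05 by edgeR's quasi-likelihood test in any of the 3 comparisons, near members or among all 41908 tested, where percent called was 0. DESeq2 also called 0 of those near members. At an unadjusted p under 0.05, PCN against control gave 560 (3.61%, against 3.75% of all promoters), and atorvastatin against control 316 (2.04%, against 1.93%). PCN against atorvastatin gave 71 (0.458%, against 0.73%). With DESeq2 these counts were 693, 371 and 119. The shares near members were thus at or below the background for PCN and for the drug comparison. The median log2 fold change was 0.10 for PCN against control (0.01 over all promoters) and 0.07 for atorvastatin against control (0.05).

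The promoters of smallest p near members included Hamp, the gene of the iron hormone hepcidin, whose promoter lay 20243 bases from a member. It was at 64.5 ± 26.5 CPM with atorvastatin and 29.2 ± 13.2 CPM in control (SD, n = 4), with a log2 fold change of 1.17 (SE 0.31) and an adjusted p of 1.00 by edgeR. The atorvastatin levels ranged from 35.0 to 89.5 CPM and the control levels from 19.4 to 48.6 CPM, so the groups overlapped. For PCN against control, the promoter of Ankrd40 was at 43.0 ± 4.62 CPM with PCN and 25.3 ± 5.18 CPM in control, a log2 fold change of 0.77 (SE 0.22) with an adjusted p of 0.918 by edgeR. The groups did not overlap there, at 36.3 to 46.9 CPM against 18.3 to 30.8 CPM. The promoter of the noncoding gene Gm10007 was at 6.34 ± 0.696 CPM with PCN and 17.2 ± 3.96 CPM in control, a log2 fold change of -1.42 (SE 0.40) with an adjusted p of 0.918 by edgeR. Without control 3 and atorvastatin 3, 4 promoters near members were called by edgeR for PCN (6 of all promoters) and 2 for atorvastatin (4 of all promoters), both times with those of Hamp and Tnfsf14, a gene of the TNF family.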

How the data were processed

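ATAC-seq was done on nuclei of frozen liver pieces (100 to 160 mg; 100000 nuclei; 45 min with the transposase), 4 libraries a group. A pravastatin group is not analysed here. The deposited tables hold the authors' expected counts per enhancer region and per promoter, unnormalised and in steps of 0.5. The submitters' processing notes give the build mm10 and list HOMER 4.10, bedtools 2.30.0, STAR 2.7.9a and Trimmomatic. The roles of these tools, the caller and its settings are not given in the sources used here. Depth per library is given in the text as total counts. A single count at a member weighs more in shallow libraries, whose median count there was 0 in control 3 and 1.5 in control 4.

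Counts were rounded to whole numbers for the tests and scaled with TMM in edgeR 4.0.16 (R 4.3.3, limma 3.58.1, and the R package data.table, version 1.17.8). Low counts were filtered with a minimum count of 10 and a total of 15, and quasi-likelihood tests were fitted to all 12 libraries with Benjamini-Hochberg adjustment over all rows at 0.05. The CPM and the fits used each library's total over the rows left by this filter. Widths with 1000 or more regions counted as classes. A locus took, in all 12 libraries, the CPM of its region of highest mean CPM, ranked with full library totals. Where that region has the width of a library, the level of that library is not free of this choice. Annotation was RefSeq GRCm38.p6; 33340 of 43511 promoters had a position. DESeq2 1.42.0, Python 3.11.15, numpy 2.4.6, pandas 2.3.3 and matplotlib 3.10.9 were also used. The fit was tested on simulated data.

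Loci named were the 8 with most treated classes, up to 2 per gene list by mean CPM, the 3 per direction of smallest p for PCN against atorvastatin, and the 3 promoters of smallest p per comparison. Names outside it were added for their role or after values were seen. The members and gene lists were chosen with earlier results of these data known. Alternatives changed the class number, merging, scaling, filter, tool, replicate block and libraries. Same-numbered libraries were not paired by the labels, and the check of their correlation is in the closing section. Results for some genes that the rule named are not reported here.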

Additional observations from a re-analysis of the deposited data

Results flagged for a closer look

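Of 83 groups of 4 libraries checked at named loci, 4 held a library far from the other 3 by Dixon's test, which chance gives in about 1 in 20 groups. Atorvastatin 3 was at 27.5 CPM at Tulp2, where the next atorvastatin library was at 16.8 CPM. It was at 24.5 CPM at Prkce, against 5.98 CPM, and at 7.49 CPM near Pmp2, against 2.97 CPM. The region counted had the width given to atorvastatin 3 at Tulp2 and Prkce, and that given to PCN 1 near Pmp2. At the locus near Lpp, PCN 2 was at 9.11 CPM, against 5.73 CPM in the next PCN library.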

How the results depend on the processing

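The number of members depends on the rule: 22033 loci had 2 or more treated classes without a control class, and 6645 had 4 or more. Leaving out the class of 1 library at a time gave 7244 (without atorvastatin 2) to 17030 members (without control 2), and merging regions within 100 bases gave 11655. Without control 3 and atorvastatin 3 there were 11424, of which 11235 were among the 11764.

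The members' median log2 fold change against control stayed above 0 under every alternative run, from 0.21 to 0.68 for PCN and from 0.17 to 0.67 for atorvastatin. The rule chose the members by treated against control, so medians above 0 support nothing. Leaving out 1 library at a time gave 0.24 to 0.68 and 0.21 to 0.67, with the lowest values without control 3 and the highest without control 1. Each fit covered the members that passed its own filter, so these medians are not over 1 set. The members' excess over all regions ranged from 0.16 to 0.40 for PCN and from 0.08 to 0.42 for atorvastatin. For PCN against atorvastatin no member was called under any alternative, and the median with 1 library left out ranged from -0.03 to 0.14. At Prkce the log2 fold change ranged from -2.44 to -1.14 with 1 library left out, and was -1.14 without atorvastatin 3.

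Promoters near members were called only without control 3 and atorvastatin 3, with 4 for PCN and 2 for atorvastatin against control; the cause was not tested. With 1 library left out, 0 were called in each comparison.

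The labels do not say that replicate numbers pair the libraries, and the deviations of same-numbered libraries did not all correlate above 0.1, so the libraries were not treated as paired. At enhancers these correlations ranged from -0.015 to 0.154 (median 0.110), against -0.147 to 0.094 for other numbers (median -0.010), and at promoters from -0.416 to 0.501 (median 0.161), against a median of -0.016, which is a hint of pairing from the data, not the design. With the replicate number as a block, the medians at the members were 0.56 for PCN and 0.45 for atorvastatin against control, and 0 promoters near the members were called.

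Zero counts limit the low loci most: control 3 had 0 counts at 68.2% of the members and control 4 at 25.3%. A low control level there was thus not distinguishable from sparse counting. The zeros did not rank by total enhancer counts, which were 1530063.5 in control 3 and 1256648.5 in control 4. Atorvastatin 3, with 8081817, had 0 counts at 34.9% of the members, and atorvastatin 1, with 2671493.5, at 0.969%. The cause was not tested.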
